A study of Mus musculus with 11 samples.

Results

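Plasma cells are the antibody-secreting end stage of the B cell lineage, and bone marrow is the tissue in which long-lived plasma cells reside. The transcripts of 10 genes that mark them were followed in whole distal tibiae of mice with and without ablation of bone marrow adipocytes (BMAds). The members were taken by gene symbol from the merged count table, which lists 22600 genes, and all 10 were found and passed the filter on low counts, so that they are 10 of the 16496 genes tested. They are Jchain, Mzb1, Xbp1, Prdm1, Sdc1, Tnfrsf17, Irf4, Igha, Ighg2b and Ighg2c. The question was whether the level of these transcripts, their proportions or their relation to each other differed between 4 Control mice and 7 BMAd-DTA mice.

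All mice were 24 weeks old, of the strain labelled C57BL6/SJL, and fed ad libitum, with no treatment compared. The paper's legend for the figure with the RNA sequencing names injections of calcein, a label of new bone, before dissection. Whether the sequenced mice received them is not stated separately. The genotype label of the Control mice is BMAd-WT. By the study's methods, BMAd-Cre is made of Osterix-FLPo, a flippase driven in the osteoblast lineage, and of FAC, a Cre in the Adipoq locus that this flippase turns on, and mice of both groups carry these alleles. BMAd-DTA mice also carry ROSA-DTA, from which Cre removes a stop cassette so that diphtheria toxin A is made. Cre acts incompletely in BMAds, acts more with age, and also reaches a small part of the adipogenic precursors of marrow. The labels give no sex, and the counts of Xist and of Y genes, given with the processing, are those of female mice. The mice of each group are numbered here only to name them.

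During the change from B cell to plasma cell, Irf4 and Prdm1 encode transcription factors that drive the programme, and Xbp1 encodes the factor that enlarges the secretory pathway. Mzb1 encodes a chaperone of the endoplasmic reticulum that assists antibody assembly. Jchain encodes the joining chain that links IgA dimers and IgM pentamers. Sdc1 encodes the surface proteoglycan syndecan used to sort plasma cells, and Tnfrsf17 encodes BCMA, a receptor for the survival ligands APRIL and BAFF. Igha, Ighg2b and Ighg2c encode the constant regions of the heavy chains of IgA, IgG2b and IgG2c, which a B cell acquires by class switching. Several members are also expressed elsewhere, such as Xbp1 in other secretory cells, Irf4 in other immune cells and Sdc1 in epithelia.

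Igha (ENSMUSG00000095079.6), Ighg2c (ENSMUSG00000076612.8) and Ighg2b (ENSMUSG00000076613.4) lie on the minus strand of the heavy chain locus, at chr12:113254830-113260236, chr12:113285325-113288932 and chr12:113302965-113307933 of GRCm38. Ighg2b and Ighg2c are close relatives, and their counts are separate only as far as their sequences differ. The beginning of the exon of the first constant domain (CH1) is shown for both, from the annotated transcripts, with the 13 bases that differ in capitals. The stretches are chr12:113307814-113307933 and chr12:113288813-113288932, both on the minus strand and 120 bases long.
Ighg2b: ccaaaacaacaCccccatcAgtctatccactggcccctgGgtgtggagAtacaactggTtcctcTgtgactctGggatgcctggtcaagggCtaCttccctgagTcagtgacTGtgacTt
Ighg2c: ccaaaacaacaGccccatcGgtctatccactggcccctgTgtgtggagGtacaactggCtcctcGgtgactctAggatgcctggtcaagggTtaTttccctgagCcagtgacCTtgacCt
Over the whole CH1 exon, 36 of 291 bases differed (87.6% identical), and over the CH2 exon 19 of 330 bases differed (94.2% identical). The longest identical run between the secreted transcripts was 78 bases, shorter than the reads of 100 bases, and no stretch of 100 bases was shared.

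The other members lie apart in the genome. Jchain (ENSMUSG00000067149.6) is at chr5:88519809-88527891 on the minus strand, Prdm1 (ENSMUSG00000038151.13) at chr10:44437177-44528501 on the minus strand and Xbp1 (ENSMUSG00000020484.19) at chr11:5520659-5525893 on the plus strand. Sdc1 (ENSMUSG00000020592.14) is at chr12:8771323-8793715, Irf4 (ENSMUSG00000021356.10) at chr13:30749226-30766976 and Tnfrsf17 (ENSMUSG00000022496.5) at chr16:11313812-11320074, all on the plus strand. Mzb1 (ENSMUSG00000024353.5) is less well separated, since 57.2% of its annotated exon bases overlap a gene on the same strand, listed as SPATA24, and its 16 to 84 counts per mouse are uncertain. Exons of the other 9 members overlap no gene on their strand.

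RefSeq promoters (GRCm38.p6) were matched for 6 members, which are Jchain, Prdm1, Xbp1, Sdc1, Irf4 and Tnfrsf17. Jchain and Tnfrsf17 are shown because their levels moved together across mice, as described further on. Each sequence holds the 250 bases before the start site, at chr5:88527898-88528147 on the minus strand for Jchain and chr16:11313559-11313808 on the plus strand for Tnfrsf17, with motif matches in capitals.
Jchain: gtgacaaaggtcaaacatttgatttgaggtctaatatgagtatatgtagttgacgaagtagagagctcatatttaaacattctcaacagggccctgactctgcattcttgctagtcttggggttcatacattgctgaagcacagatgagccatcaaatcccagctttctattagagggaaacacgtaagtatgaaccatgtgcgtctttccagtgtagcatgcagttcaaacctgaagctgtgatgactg
Tnfrsf17: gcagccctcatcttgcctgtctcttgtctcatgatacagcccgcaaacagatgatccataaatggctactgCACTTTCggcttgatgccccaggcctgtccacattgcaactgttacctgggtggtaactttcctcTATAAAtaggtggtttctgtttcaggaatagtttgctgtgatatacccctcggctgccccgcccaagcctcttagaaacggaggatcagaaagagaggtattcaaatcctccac
Irf4 held the same pair of motifs close to its start, in windows at chr13:30749195-30749224 and chr13:30749219-30749248 on the plus strand. Its PRDM1 core begins at -3 and runs past the start site, since the promoters searched extend beyond the start site.
Irf4 TATA window: cgcctccggctcTATAAAgttcctctttct
Irf4 PRDM1 core window: ctttctcacctCACTTTCctagtttcacca
The core of the PRDM1 motif, GAAAGTG on either strand, was in the promoters of Irf4 and Tnfrsf17 and in 4.81% of the 32851 promoters in the table. The TATA motif, TATAAA, was in the same 2 member promoters and in 13.6% of all. The octamer ATTTGCAT, the ETS-IRF composite element, the core of the unfolded protein response element TGACGTGG and the endoplasmic reticulum stress element were searched on both strands as well and were in none of the 6 windows. Their shares over all promoters, in that order, were 1.74%, 2.72%, 0.676% and 0.119%. A match is a run of letters only, and binding was not measured.

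The libraries held 16969529 to 18637663 counts over the merged table, and immunoglobulin genes took 1.32% (Control 1) to 5.26% (BMAd-DTA 6) of them. edgeR's quasi-likelihood test called 13 of 16496 genes at an adjusted p under 0.05, 12 higher and 1 lower in BMAd-DTA. DESeq2, the method the paper used, called 845 of 15583 genes at that threshold, so that the number depends on the test. The adipocyte gene Retn was 8.42 ± 1.28 CPM (the count relative to the scaled library size, SD, n = 4) in Control and 3.23 ± 0.650 CPM (n = 7) in BMAd-DTA mice, an edgeR log2 fold change of -1.38 (adjusted p = 0.0205). Adipoq, whose locus carries FAC in both groups, was 138 ± 79.9 and 56.7 ± 47.9 CPM (edgeR adjusted p = 0.416). Summed over 10 adipocyte markers, the level was 1140 to 1852 CPM in Control and 495 to 1373 CPM in BMAd-DTA mice. Of 10 osteoblast markers, all had a fitted fold change above 0 and Alpl, the bone alkaline phosphatase, rose (log2 fold change 1.16, edgeR adjusted p = 0.0326).

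None of the 10 plasma cell genes differed between the groups at an adjusted p under 0.05, against 0.0788% of all genes tested. At an unadjusted p under 0.05, the count was 0 of 10 members, against 16.4% of all genes. DESeq2 and limma-voom gave 0 members at both thresholds as well. At the adjusted threshold they called 845 of 15583 and 238 of 16496 genes. Their shares of all genes at the unadjusted threshold are not given here. For every member the groups overlapped, whereas they did not overlap for 2.81% of all genes. The fitted log2 fold change was above 0 for 9 of 10 members, against 50.4% of all genes, and below 0 for 1, against 49.6%, with a median of 0.33 against 0.0018. Since the members vary together across mice, the 9 are not independent observations. Control 1 was the lowest mouse for 8 members, all but Ighg2b and Ighg2c. The p-values judge the difference between the groups against the spread between the mice. In whole bone, a difference in the number of plasma cells and one in the RNA of each plasma cell cannot be told apart.

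**Figure D1:**
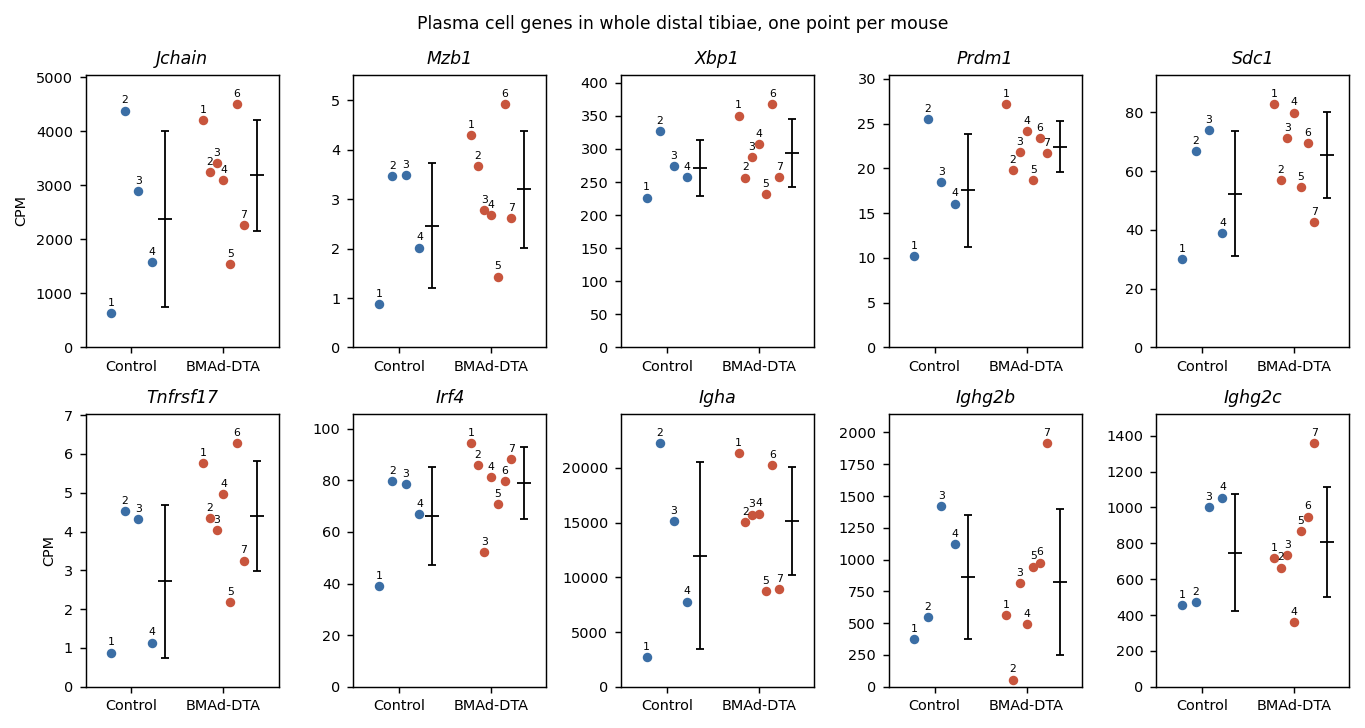
Level of each plasma cell gene in CPM (vertical axis, from 0) for 4 Control mice (blue) and 7 BMAd-DTA mice (red), numbered by mouse, with the group mean and SD as bars. Control 1 is the lowest mouse for 8 of the 10 genes, and the groups overlap in every panel.

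Jchain was measured at 634, 4382, 2895 and 1575 CPM in Control 1 to 4. In BMAd-DTA 1 to 7 it was at 4208, 3247, 3411, 3095, 1545, 4506 and 2269 CPM. The Control mice thus spanned most of the range of the BMAd-DTA mice and extended below it, and only BMAd-DTA 6 was above all of them. The means were 2371 ± 1630 CPM (SD, n = 4) and 3183 ± 1032 CPM (n = 7), with a log2 fold change of 0.42 (SE 0.41, edgeR adjusted p = 0.669). The two-sided exact permutation test of the means over all 330 splits of the mice gave p = 0.315, where the smallest p it allows is 0.00303.

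Igha, the heavy chain of the IgA that the joining chain links, had the highest level of the members, also per length of exon. Its level was 2676, 22257, 15154 and 7783 CPM in Control 1 to 4. In BMAd-DTA 1 to 7 it was 21319, 15038, 15720, 15820, 8764, 20260 and 8930 CPM. The lowest and the highest mouse were both in the Control group, 8.32-fold apart, while the BMAd-DTA mice spanned 2.43-fold. The means were 11970 ± 8561 and 15120 ± 4906 CPM, with a log2 fold change of 0.34 (SE 0.44, edgeR adjusted p = 0.762, exact permutation p = 0.461). Igha alone took 0.267% to 2.19% of all counts in a library.

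Without Control 1, the log2 fold change of Jchain was 0.11 and that of Igha 0.0052, so that this mouse carried nearly all of the difference in Igha. For 6 other members the value was also smaller without it, 0.41 for Tnfrsf17, 0.16 for Prdm1, 0.13 for Sdc1, 0.097 for Mzb1, 0.072 for Irf4 and 0.038 for Xbp1. Without Control 2, the mouse with the highest Igha, the log2 fold changes of Jchain and Igha were 0.90 and 0.82. The unadjusted edgeR p was then under 0.05 for Jchain, Prdm1 and Tnfrsf17, with a smallest edgeR adjusted p among the members of 0.191. Control 1 also had the lowest sum of the 10 osteoblast markers, 3301 CPM against 11390 to 13430 CPM in the other Control mice and 16370 to 36480 CPM in BMAd-DTA mice. No osteoblast marker was at 0 in any library, and the part of bone content in the plasma cell gene levels was not tested.

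Tnfrsf17 had the largest fitted fold change among the members. It was at 0.882, 4.53, 4.31 and 1.14 CPM in Control 1 to 4. In BMAd-DTA 1 to 7 it was at 5.77, 4.36, 4.03, 4.97, 2.18, 6.28 and 3.25 CPM. Control 1 and 4 were below every BMAd-DTA mouse, while Control 2 and 3 lay among them. The means of 2.72 ± 1.98 and 4.41 ± 1.42 CPM gave a log2 fold change of 0.70 (SE 0.43, edgeR adjusted p = 0.449, exact permutation p = 0.139). These values rest on 16 to 107 counts per mouse. The ligands of the receptor had log2 fold changes of 0.026 (SE 0.29) for Tnfsf13 (APRIL) and -0.067 (SE 0.14) for Tnfsf13b (BAFF). Tnfsf13 averaged only 16.5 counts per mouse, so that its value is uncertain.

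The factors of the programme spread less. Prdm1 was at 10.2, 25.5, 18.5 and 16.1 CPM in Control mice and between 18.7 and 27.2 CPM in BMAd-DTA mice, with a median of 21.8 CPM. Its means of 17.6 ± 6.33 and 22.4 ± 2.85 CPM gave a log2 fold change of 0.35 (SE 0.19) and the smallest adjusted p of all members by edgeR, 0.378. Control 1, 3 and 4 were below every BMAd-DTA mouse, and Control 2 was above all but BMAd-DTA 1.

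Irf4 was at 39.0, 79.8, 78.4 and 67.0 CPM in Control mice and between 52.3 and 94.4 CPM in BMAd-DTA mice, with a median of 81.3 CPM. The log2 fold change was 0.26 (SE 0.19, edgeR adjusted p = 0.535). Xbp1 was at 227, 327, 274 and 258 CPM in Control mice and between 231 and 368 CPM in BMAd-DTA mice, with a median of 288 CPM and a log2 fold change of 0.12 (SE 0.13, edgeR adjusted p = 0.723). With a highest mouse 1.63-fold above the lowest, Xbp1 varied least of the 10 genes.

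Sdc1, the surface marker, was at 30, 66.8, 73.9 and 38.8 CPM in Control mice and between 42.5 and 82.9 CPM in BMAd-DTA mice, with a median of 69.5 CPM. The log2 fold change was 0.32 (SE 0.24, edgeR adjusted p = 0.550). Control 1 and 4 were below every BMAd-DTA mouse, as for Tnfrsf17. Mzb1, whose exons overlap another gene, was at 0.882, 3.47, 3.49 and 2.02 CPM in Control mice and between 1.43 and 4.93 CPM in BMAd-DTA mice, with a log2 fold change of 0.38 (SE 0.38, edgeR adjusted p = 0.678).

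The IgG2 heavy chains had another order of mice. Ighg2b was at 375, 551, 1419 and 1119 CPM in Control 1 to 4. In BMAd-DTA 1 to 7 it was at 566, 56.0, 813, 495, 945, 976 and 1916 CPM. The BMAd-DTA group held both the lowest and the highest mouse, 34.2-fold apart. The means were 866 ± 487 and 824 ± 577 CPM, with a log2 fold change of -0.072 (SE 0.61, edgeR adjusted p = 0.973).

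Ighg2c was at 457, 473, 1003 and 1055 CPM in Control 1 to 4 and at 717, 664, 734, 361, 867, 949 and 1359 CPM in BMAd-DTA 1 to 7. BMAd-DTA 7 was the highest mouse for both IgG2 genes. The log2 fold change was 0.11 (SE 0.32, edgeR adjusted p = 0.904). The sign of the fold change turned for both genes when single mice were left out, so that no direction can be given for either.

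In 10 of the 11 mice, 0.706 to 1.27 Ighg2c counts were found per Ighg2b count. In BMAd-DTA 2 the ratio was 11.9, with 977 counts of Ighg2b, while its Ighg2c level of 664 CPM lay within the range of the other mice. Bases that differ, as in the stretch printed above and elsewhere in the exons, separate the reads of these genes. How reads with mismatches were divided between them was not tested.

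Levels of different genes can be set side by side only per length, here as CPM per kilobase of annotated exon. In Control mice the order was Igha (4486), Jchain (942), Ighg2c (563), Ighg2b (323), Xbp1 (83.5), Sdc1 (13.8), Irf4 (13.5), Tnfrsf17 (3.34), Prdm1 (3.15) and Mzb1 (2.03). The order in BMAd-DTA mice was the same, from 5668 for Igha and 1265 for Jchain down to 4.02 for Prdm1 and 2.63 for Mzb1. Sdc1 and Irf4 differed by less than the SD of either gene in both groups, and Tnfrsf17 and Prdm1 did so in Control mice. Other neighbours in Control mice differed by less than the larger SD of the pair. These were Jchain and Ighg2c, Ighg2c and Ighg2b, and Prdm1 and Mzb1. The annotated exons of Ighg2c (1.33 kb) are shorter than those of Ighg2b (2.68 kb), which enters their order. The last place of Mzb1 is uncertain, since 57.2% of the exon bases in its length overlap another gene on the same strand. How reads from the overlap were counted was not tested.

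**Figure D2:**
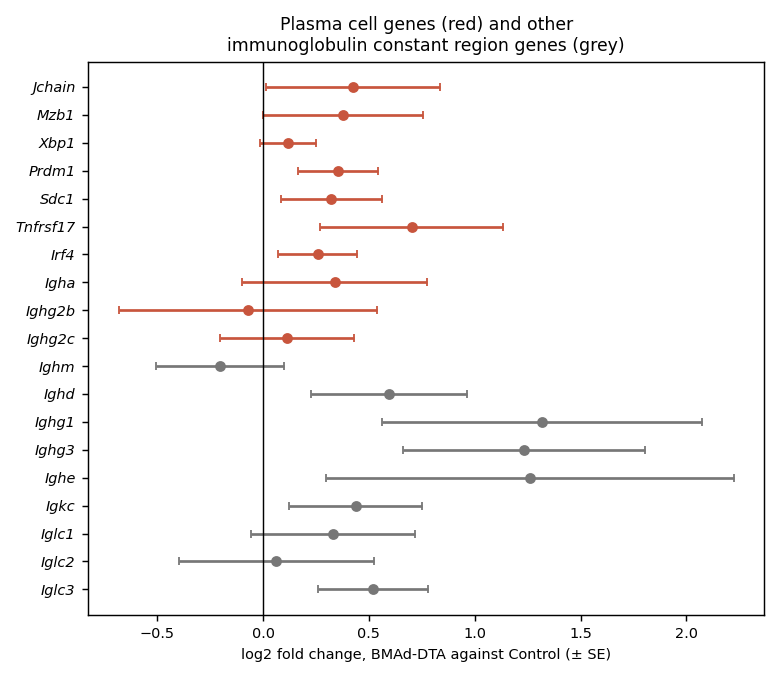
Fitted log2 fold change, BMAd-DTA against Control (horizontal axis), with SE as bars, for the 10 plasma cell genes (red) and 9 other immunoglobulin constant region genes (grey). Values run from -0.20 for Ighm, which is at 0.20 without Control 1, to 1.32 for Ighg1, which is at 0.40 without BMAd-DTA 6, and none passed the edgeR test at an adjusted p under 0.05.

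The other constant region genes show which antibody classes accompanied the members. None of the 9 passed the test, 8 had a fold change above 0, and the median log2 fold change was 0.52. Ighm, the heavy chain of IgM that B cells carry before switching, was the only one below 0, at -0.20 (SE 0.30, edgeR adjusted p = 0.795), and was at 0.20 without Control 1. Ighg1, Ighe and Ighg3 had the highest log2 fold changes, 1.32, 1.26 and 1.23, with adjusted p of 0.412, 0.562 and 0.307 by edgeR. Without BMAd-DTA 6 they were 0.40, 0.26 and 1.13, and without BMAd-DTA 4, the mouse with the highest Ighg3, that gene was at 0.75. For Ighe, 4 of the 7 BMAd-DTA mice were below every Control mouse. Ighd, the heavy chain of IgD on naive B cells, was at 0.59, and the light chains Igkc, Iglc1, Iglc2 and Iglc3 were at 0.44, 0.33, 0.062 and 0.52, where Iglc2 was below 0 without Control 1, Control 4 or BMAd-DTA 6. Without Control 1, Igkc was at 0.20 and Iglc1 at 0.022.

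Ighg1 was at 136, 200, 244 and 490 CPM in Control mice and at 228, 199, 360, 104, 757, 2541 and 476 CPM in BMAd-DTA mice. BMAd-DTA 6 was far above the other 10 mice. That mouse also had the highest Ighe, 23.3 CPM against 0.437 to 11 CPM in the other mice.

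The composition of the heavy chain counts does not depend on the scaling of the libraries. Igha made up 67.5 ± 21.7% (n = 4) of the counts of the 8 heavy chain constant genes in Control mice and 77.1 ± 10.4% (n = 7) in BMAd-DTA mice, a difference of 9.65 points (two-sided exact permutation p = 0.376). Its share ran from 38.6% to 89.9% in Control and from 60.7% to 85.7% in BMAd-DTA mice. Without Control 1 the difference was 0.033 points. Ighg2b and Ighg2c together made up 11.6 ± 5.76% and 9.28 ± 6.56%, a difference of -2.36 points (exact permutation p = 0.576). Among the class-switched isotypes only, leaving out Ighm and Ighd, the differences were 3.81 points for Igha (exact permutation p = 0.552) and -4.88 points for the IgG2 genes (p = 0.339).

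Control 1 stood apart by its IgM share. Ighm held 46.0% of its heavy chain counts (95% Wilson interval 45.7% to 46.3%), against 3.81% to 14.4% in the other 10 mice. It had both the lowest Igha level and the highest Ighm level, 3185 CPM against 707 to 2113 CPM elsewhere. The Wilson intervals of the shares were at most 0.28 points to either side and cover counting error only. The Igkc share of the light chain constant counts was narrow, 97.1 ± 0.794% in Control and 97.4 ± 0.670% in BMAd-DTA mice.

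**Figure D3:**
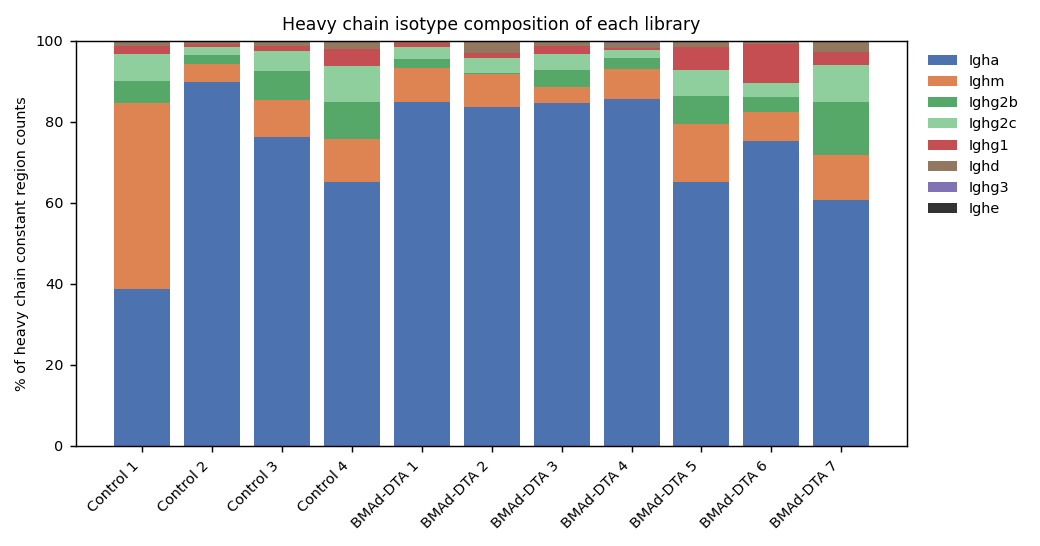
Share of each heavy chain constant region gene in the heavy chain counts (vertical axis, %) for each of the 11 mice. Igha is the largest share in every mouse but Control 1, in which Ighm holds 46.0%.

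Across the 11 mice, most members varied together. Of the 45 pairs, 37 had a Pearson r of log2 CPM above 0, with a median r of 0.74, and 26 pairs passed at an adjusted p under 0.05 (permutation test, Benjamini-Hochberg over the 45 pairs). By Spearman rho, 19 pairs passed. With each group centred on its own mean, 20 pairs passed by r, and without the 2 mice farthest from the median of one gene of the pair, 12 passed.

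Jchain and Igha had the highest Pearson r of the 45 pairs, 0.986 (permutation p = 1e-05, the smallest that the resampling allows, adjusted p = 0.0003) and rho = 0.918 (permutation p = 0.00025, adjusted p = 0.00349). Without Control 1 and BMAd-DTA 5, the farthest from the median of Jchain, r was 0.970. In every mouse, 17.6 to 25.4 counts of Jchain were found per 100 counts of Igha, in spite of the 8.32-fold range of Igha itself. The relation of Jchain with Tnfrsf17 had r = 0.940 and rho = 0.882 (permutation, adjusted p = 0.0003 and 0.0051), and r = 0.907 without the same mice.

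Jchain also moved with Mzb1 (r = 0.952, rho = 0.873, r = 0.853 without the same mice) and with Prdm1 (r = 0.927, rho = 0.818, then r = 0.809). With Sdc1 it had r = 0.866 and rho = 0.645 (then r = 0.800), and with Xbp1 r = 0.832 and rho = 0.873 (then r = 0.801). The permutation p of r was 3e-05 for Mzb1, 0.00026 for Prdm1, 0.00145 for Sdc1 and 0.00084 for Xbp1. Adjusted over the 45 pairs, it was 0.000338, 0.00152, 0.00466 and 0.00315. The adjusted permutation p of rho was 0.0051, 0.0126, 0.0753 and 0.0051 in the same order, so that Sdc1 passed by r alone. Irf4 was different, since its r of 0.722 (permutation p = 0.0213, adjusted p = 0.0383, rho = 0.445) dropped to 0.22 without Control 1 and BMAd-DTA 5 and rested on those mice.

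Ighg2b and Ighg2c followed none of this. Their r with Jchain was -0.040 and 0.044, with permutation adjusted p of 0.982 for both. With each other they had r = 0.538 (permutation p = 0.0843, adjusted p = 0.136) but rho = 0.927 (p = 0.0001, adjusted p = 0.00349). Without BMAd-DTA 2 and 7, the mice farthest from the median of Ighg2b, r was 0.892 (adjusted p = 0.0143).

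**Figure D4:**
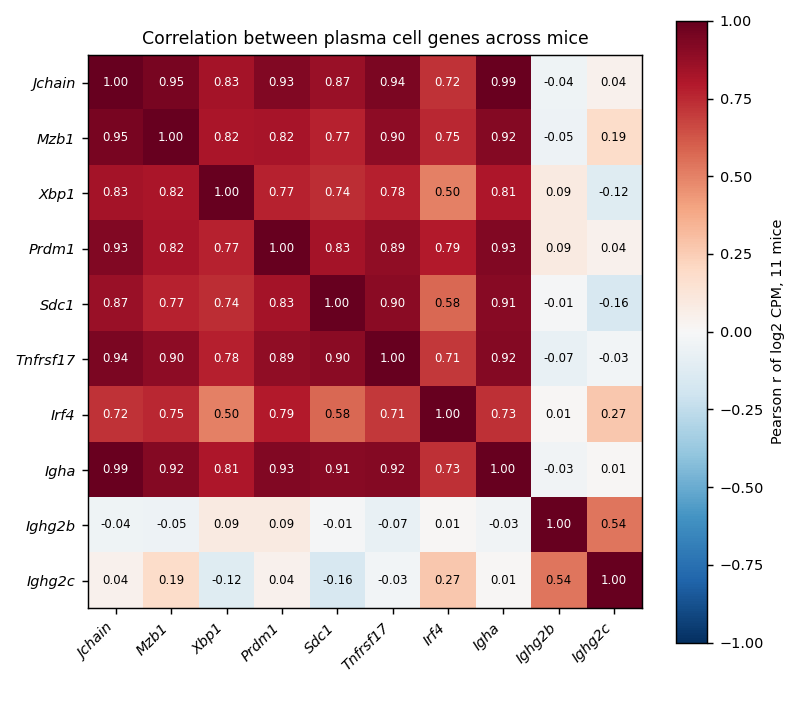
Pearson r of log2 CPM across 11 mice for every pair of plasma cell genes, in colour and figures. The first 8 genes form a block of positive values, lower for Irf4, and Ighg2b and Ighg2c stand outside it, with 0.54 between them.

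**Figure D5:**
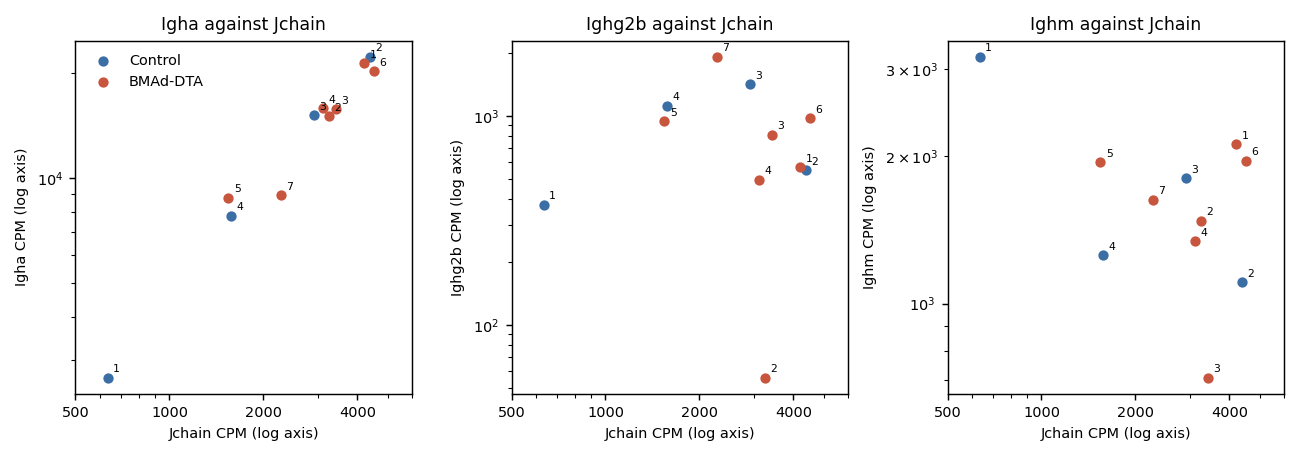
Igha, Ighg2b and Ighm against Jchain, in CPM on log axes, 1 point per mouse (blue Control, red BMAd-DTA, numbered). Igha lies along a line with Jchain (r = 0.986), Ighg2b does not (r = -0.040), and Control 1 has the lowest Jchain and the highest Ighm.

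Of 12963 non-member genes averaging 50 counts or more, those most like Jchain by Pearson r over the 11 mice were Cacna1h (0.990), Txndc5 (0.982), Derl3 (0.980), Tram2 (0.979), Igkc (0.971), Cntnap1 (0.963), Bhlha15 (0.957), Igkv10-96 (0.956), Ighv1-9 (0.955) and Ighv3-6 (0.955). Of these 10, 4 are immunoglobulin genes. Txndc5 and Derl3 encode proteins of the endoplasmic reticulum that act in protein folding and degradation, and Bhlha15 encodes a transcription factor of secretory cells. None of the 10 passed the test between the groups, and their log2 fold changes ran from -0.030 for Ighv1-9 to 0.47 for Derl3.

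Further genes enriched in plasma cells had mostly positive fold changes, as the members had. Of 13 tested, 0 passed, 10 were above 0 and the median log2 fold change was 0.20. At an unadjusted edgeR p under 0.05, the count was 2 of 13, against 0 of 10 members and 16.4% of all genes. Fkbp11, a peptidyl-prolyl isomerase of the secretory pathway, was highest at 0.83 (4.97 ± 1.0 and 8.87 ± 2.66 CPM, edgeR adjusted p = 0.108). Tent5c, a poly(A) polymerase that acts on immunoglobulin transcripts, had the highest mean count of the list and the lowest value, -0.27 (edgeR adjusted p = 0.429).

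The genes of the unfolded protein response and of folding in the endoplasmic reticulum, which Xbp1 serves, centred on 0. Of 20 tested, 0 passed, 11 were above 0 and the median was 0.030. Creb3l2 was highest at 0.27 (edgeR adjusted p = 0.133), Ddit3 lowest at -0.18, and the chaperone gene Hsp90b1, with the highest mean count, was at 0.018.

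The ligands, receptors and survival factors of the plasma cell niche did likewise. Of 20 tested, 0 passed, 12 were above 0 and the median was 0.018. The BAFF receptor gene Tnfrsf13c was highest at 0.51 (edgeR adjusted p = 0.345) and Bcl2l1 lowest at -0.18. Cxcl12, the chemokine that retains plasma cells in marrow, had the highest mean count and was at 0.020 (3357 ± 658 and 3404 ± 723 CPM).

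Earlier B cell stages were described in the same way. None of 12 mature B cell genes passed, 10 were above 0 and the median was 0.54, from -0.032 for Cd74, with the highest mean count, to 0.69 for Fcer2a. None of 8 genes of B cell precursors passed and all were above 0, with a median of 0.25, from 0.17 for Rag1 to 0.65 for Vpreb3. Il7r, with the highest mean count of the list, was at 0.23. The paper, by colony assays of marrow cells, reports impaired B lymphocyte progenitors in BMAd-DTA mice, which is another measure than RNA of whole bone.

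Among 12 transcription factors of B cell identity, 0 passed and 8 were above 0, with a median of 0.12. The highest was Id3, an inhibitor of E proteins, at 0.73 (37.2 ± 8.80 and 61.4 ± 8.13 CPM, edgeR adjusted p = 0.0675), the lowest Bcl6 at -0.065 and Spi1, with the highest mean count, was at -0.027. Among 5 tested genes of class switching and germinal centres, 0 passed and 1 was above 0, with a median of -0.15, from -0.26 for Gcsam, with the highest mean count, to 0.14 for Fas.

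Mature B cell markers summed to 2301 to 3337 CPM in Control and 2178 to 4997 CPM in BMAd-DTA mice. B cell precursor markers summed to 93.4 to 257 CPM and 72.9 to 294 CPM. Of 10 T cell markers, 0 passed and 10 were above 0, and their sums of 164 to 223 CPM and 228 to 310 CPM did not overlap. By edgeR, 8 of the 10 had an unadjusted p under 0.05, against 16.4% of all genes. Taken singly, 1 of the 10 had groups that did not overlap, against 2.81% of all genes. The paper, by flow cytometry of marrow cells, reports a decrease of T cells, which is another measure than RNA of whole bone. Sums of 10 muscle markers ran from 17.6 to 1304 CPM and from 19.3 to 1036 CPM, and sums of 9 eosinophil markers from 1192 to 4821 CPM and from 2072 to 7375 CPM. Neutrophil, macrophage and dendritic cell lists had medians of -0.014, -0.068 and 0.094, with 0 genes called. None of these markers was at 0 in any library. With the muscle markers as a covariate, no member passed at an adjusted p under 0.05, and the log2 fold change was 0.57 for Jchain, 0.48 for Igha and 0.98 for Tnfrsf17 (edgeR adjusted p = 0.571, 0.672 and 0.298). The part of the other markers in the levels of the plasma cell genes was not tested.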

How the data were processed

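Strand-specific RNA sequencing of whole distal tibiae was done with paired reads of 100 bases, 1 library per mouse. The authors checked reads with FastQC 0.11.9, aligned them to mm10 with STAR and deposited whole-number counts per gene, per library and merged. The annotation release is not given in the sources used here. The merged table equals the read-strand column, and genes outside it hold 1.46% of the counts of the per-library files. Groups came from the labels. The 10 members and the gene lists were chosen with earlier results of these data known.

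Counts were tested with edgeR 4.0.16 in R 4.3.3 (filterByExpr, TMM, glmQLFit and glmQLFTest, genotype as the only term, Benjamini-Hochberg adjustment over 16496 genes, threshold 0.05). CPM used the TMM library sizes. Correlations used log2 CPM (prior count 2), each with 100000 permutations. Differences in mean CPM and in shares were tested by exact permutation over 330 splits. Scripts were tested on simulated data. Positions, exon lengths and transcripts came from GENCODE on GRCm38, promoters from RefSeq. Genes named are the members, the genes of a list called by the test, each described list's highest, lowest and highest-count gene, all constant region genes and the 10 genes most like Jchain. Tnfsf13, Tnfsf13b, Adipoq and the motif-bearing promoters were chosen after their values were seen. Alternatives were DESeq2 1.42.0, limma 3.58.1 voom with quality weights, other scaling, filters, counting columns, a muscle covariate and leaving out each mouse. Gene set and differential tables of the authors were not used. Every library had 13810 to 20260 counts of Xist and at most 1 count over 4 Y genes. These are values of female mice, whereas the paper's figure legend for the RNA sequencing names male mice. Some gene list members (Pim2, Pdia6) were not analysed here.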

Additional observations from a re-analysis of the deposited data

Results flagged for a closer look

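Of 46 sets of values within a group, 2 held a mouse far from the rest. Chance alone marks about 1 in 20 such sets. The share of Ighm, by which Control 1 stood apart as described above, was not among the sets. In the BMAd-DTA group, Ighg1 was at 2541 CPM in BMAd-DTA 6 and between 104 and 757 CPM in the other 6 mice, a gap of 0.732 of the group's whole range. In the same group, the number of Ighg2c counts per Ighg2b count was 11.9 in BMAd-DTA 2 and between 0.709 and 1.27 in the other 6 mice, a gap of 0.95 of the range. No cause was tested for either.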

How the results depend on the processing

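The number of members with an adjusted p under 0.05 was 0 under all 21 alternatives, which were 10 other settings and 11 fits without 1 mouse each. Over all genes, the calls ran from 0 of 16766 without Control 1 to 845 of 15583 with DESeq2. Where few or no genes were called, a count of 0 among 10 members says little about the members. Of 210 log2 fold changes of members, 202 kept their direction, and 8 turned, all without 1 mouse. Without 1 mouse, the value of Ighg2c reached 0.33 and that of Ighg2b -0.43 at the other end of their ranges. For Ighg2c the value was -0.064 without Control 1, -0.054 without Control 2 and -0.063 without BMAd-DTA 7. For Ighg2b it was 0.28 without Control 3, 0.076 without Control 4, 0.0011 without BMAd-DTA 1, 0.14 without BMAd-DTA 2 and 0.021 without BMAd-DTA 4. With the muscle score as covariate, the unadjusted p of Tnfrsf17 was under 0.05, with an adjusted p of 0.298 by edgeR, and adjusted p of the lowest member ranged from 0.298 to 0.436 over the 10 settings.

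The number of all genes called moved much more than the members did. Against 13, it was 845 with DESeq2, 238 with limma-voom and quality weights, 20 with RLE size factors and 3 with the muscle covariate, and it ran from 0 to 292 when 1 mouse was left out (0 without Control 1, Control 2, BMAd-DTA 1 or BMAd-DTA 6, 292 without Control 3 and 89 without Control 4). The cause was not tested. The difference in the Igha share ran from 0.033 to 17.1 points and that of the IgG2 shares from -4.86 to -0.17 points without 1 mouse. With the class-switched isotypes only, they were 3.81 and -4.88 points. The other constant region genes were refitted without each mouse, a choice made after seeing the data. Ighm then ran from -0.38 to 0.20, above 0 only without Control 1, and Iglc2 from -0.23 to 0.58, with -0.23 without Control 1, -0.19 without Control 4 and -0.20 without BMAd-DTA 6. The correlated pairs fell from 26 to 12 without the 2 farthest mice, a fit with fewer mice. Mzb1 and Tnfrsf17 rest on few counts, as few as 16 in a mouse, and the exons of Mzb1 also overlap another gene. No paired analysis was possible because the labels number no replicates.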
